A study of Mus musculus with 6 samples.

Results

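The IL-1 and IL-18 receptor family was followed in mouse T helper 9 (Th9) cells cultured with or without sphingosylphosphorylcholine (SPC), a bioactive lysophospholipid. The 9 genes were taken by symbol from 23183 symbols measured: Il18r1, Il18rap, Il1r1, Il1r2, Il1rl1, Il1rl2, Il1rap, Sigirr and Il1rn. Naive CD4+ T cells of wild-type C57BL/6N mouse spleen, isolated with an enrichment kit, were stimulated in both groups with anti-CD3e bound to the plate and anti-CD28 in solution, each at 1 µg/ml. All cultures held the cytokines TGF-β1 at 2 ng/ml and IL-4 at 10 ng/ml, and anti-IFN-γ antibody at 10 µg/ml. The 3 SPC libraries came from cells that also received SPC (d18:1, 30 µM), the 3 control libraries from cells without it, and all were taken on day 3. The series text gives 3 independent experiments as their origin. The labels give neither the age and sex of the mice nor the number of mice behind each library, and no label names a vehicle in the control cultures.

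The members were chosen by receptor family, and the family was selected on its measured values in SPC against control libraries, above all the higher Il18r1 counts with SPC. The fold changes, calls and adjusted p-values of the 9 genes in that contrast are therefore given as a description.

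Receptors of this family consist of a ligand-binding chain and an accessory chain whose cytoplasmic TIR domains recruit the adaptor MyD88 and, through IRAK kinases and TRAF6, activate NF-κB and MAP kinases. Il18r1 and Il18rap encode the binding and the accessory chain of the IL-18 receptor. Il1rap encodes the accessory chain shared by the receptors of IL-1 (Il1r1), IL-33 (Il1rl1, also called ST2) and IL-36 (Il1rl2). Il1r2 encodes a decoy receptor without a TIR domain, Sigirr a single-immunoglobulin receptor that restrains signalling, and Il1rn the secreted IL-1 receptor antagonist. In T cells, IL-18 is best known for its action on Th1 cells, IL-33 for its action on Th2 and regulatory T cells, and IL-1 for its action on Th17 cells.

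Of the 9 genes, 6 lie in a row on chromosome 1 (mm10), all on the plus strand, within 477.6 kb. From the proximal end these were Il1r2 (chr1:40074079-40125231), Il1r1 (chr1:40225080-40317257), Il1rl2 (chr1:40324610-40367562), Il1rl1 (chr1:40429570-40465415), Il18r1 (chr1:40465552-40500854) and Il18rap (chr1:40515362-40551705). Il1rap (chr16:26581704-26730117) and Il1rn (chr2:24336853-24351494) lie on the plus strand and Sigirr (chr7:141091175-141100572) on the minus strand of other chromosomes. The annotated end of Il1rl1 is 136 bp from the annotated start of Il18r1, and 14507 bp lie between Il18r1 and Il18rap. The sequence between Il1rl1 and Il18r1 (chr1:40465416-40465551) and the 250 bases before the start of Il18rap (chr1:40515112-40515361) are shown because they precede the genes of both IL-18 receptor chains, on which the results turn. Both are plus-strand sequence from the RefSeq promoter table (GRCm38.p6, the assembly that mm10 names), which held 8 of the 9 genes, and capitals mark CpG dinucleotides.
Il18r1: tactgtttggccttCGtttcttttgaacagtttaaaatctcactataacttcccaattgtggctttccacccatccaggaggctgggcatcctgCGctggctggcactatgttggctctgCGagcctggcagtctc
Il18rap: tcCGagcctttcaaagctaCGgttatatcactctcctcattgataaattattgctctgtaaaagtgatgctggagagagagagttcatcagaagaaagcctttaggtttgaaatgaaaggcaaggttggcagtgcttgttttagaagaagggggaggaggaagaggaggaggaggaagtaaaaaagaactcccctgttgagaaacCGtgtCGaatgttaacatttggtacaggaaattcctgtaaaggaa

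The window before Il18r1 had a GC content of 50.7% and 3 CpGs, and that before Il18rap 42.0% and 4 CpGs, against a median GC of 54.4% and 52.4% in windows of the same length before the starts of 32851 RefSeq promoters. Both strands were searched for a GATA motif (AGATAA), an AP-1 motif (TGANTCA), a STAT motif (TTCNNNGAA) and a ROR motif (AGGTCA). None of these searched forms occurred in either window. In windows of 136 bases the GATA, AP-1, STAT and ROR motifs were found in 5.1%, 3.9%, 3.6% and 7.8% of promoters. In windows of 250 bases they were found in 10.0%, 6.7%, 7.0% and 14.0%. The NF-κB and IRF motifs were found in 0.8% and 1.4% of promoters (136 bases) and in 1.4% and 3.0% (250 bases). A STAT motif with 4 free bases in its middle, in place of 3, was not part of the search. That form can be read in both printed sequences, and its share among promoters was not counted. The GATA form TGATAA was likewise not part of the search. It can be read in the printed Il18rap sequence, and its share was not counted either. RefSeq also lists further start sites of Il18r1, whose windows were not searched.

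The libraries held between 22002050 and 33049997 counts. Values are in CPM, counts scaled to the library total as adjusted by TMM (edgeR's correction for composition). A count of 3, the limit that a count of 0 allows for counting error, equals 0.0911 to 0.136 CPM. The cells bore T cell transcripts: the 6 T cell markers Cd3e, Cd3d, Cd3g, Cd4, Cd5 and Cd28 summed to between 1014 and 1068 CPM in control and between 1062 and 1166 CPM in SPC libraries. Among cells known for IL-18 or IL-33 receptors, the markers of NK cells and of mast cells and basophils were near 0. The 6 NK cell markers summed to between 0.0455 and 0.171 CPM in control and between 0.122 and 0.268 CPM in SPC libraries, with Ncr1 at 0 in all 6, and the 8 mast cell and basophil markers to at most 0.182 CPM, with Mcpt8, Cpa3, Fcer1a, Prss34 and Tpsb2 at 0. The 5 markers of type 2 innate lymphoid cells summed to between 0.636 and 0.896 CPM in control and between 0.913 and 1.68 CPM in SPC libraries, with Klrg1 at 0. The 6 dendritic cell markers summed to between 2.60 and 3.68 CPM in control and between 4.13 and 6.26 CPM in SPC libraries. Among them, Clec9a and Cd209a were at 0. The dendritic cell sum and the innate lymphoid cell sum were each higher in every SPC library than in any control library. For scale, Il18r1 lay between 4.91 and 8.35 CPM in control libraries, and Il1rl1 at no more than 0.332 CPM in any library. No marker of these or the other lists was called without the block. With the block Cd5 (209.8 ± 7.17 and 268.5 ± 7.69 CPM) and the dendritic cell marker Zbtb46 (2.87 ± 0.40 and 4.51 ± 1.14 CPM) were higher in SPC libraries (adjusted p = 0.00157 and 0.0427, edgeR). The macrophage marker Adgre1 (0.642 ± 0.209 and 0.184 ± 0.032 CPM) and the endothelial marker Pecam1 (8.44 ± 2.63 and 5.84 ± 0.81 CPM) were lower (adjusted p = 0.0315 and 0.0354, edgeR with the block). Summed, the 7 macrophage and monocyte markers ranged from 0.513 to 0.909 CPM in control and from 0.304 to 0.577 CPM in SPC libraries, and the 5 fibroblast and endothelium markers from 7.22 to 12.7 and from 5.80 to 7.52 CPM. The part of these differences in the receptor values was not tested. In RNA of whole cultures, a change in the number of expressing cells and a change in RNA per cell cannot be told apart.

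Compared per length, as CPM per kb of annotated exon, Sigirr was the most abundant member in control cells, at 15.4 ± 1.97 (SD, n = 3, as for the other values of this paragraph). Il1rn followed at 2.66 ± 0.29, then Il18r1 at 1.32 ± 0.37, Il18rap at 1.03 ± 0.40 and Il1rap at 0.852 ± 0.078. The remaining receptors were lower: Il1rl2 stood at 0.226 ± 0.032, Il1r2 at 0.140 ± 0.115, Il1r1 at 0.0389 ± 0.0152 and Il1rl1 at 0.0359 ± 0.0146 CPM per kb. The ranges of the control libraries were separate between Sigirr and Il1rn, between Il1rn and Il18r1, and between Il1rap and Il1rl2, and overlapped between all other neighbours in this order. With SPC, Il18r1 stood at 3.24 ± 0.39 CPM per kb, a range that overlapped that of Il1rn at 3.08 ± 0.20. The place of Il1rap and of Il1rn depended on the length used, since per length of the longest transcript Il1rap (2.14 ± 0.20) lay above Il18r1 (1.53 ± 0.43) in control cells, with overlapping ranges, and Il1rn with SPC (6.68 ± 0.44) lay above Il18r1 (3.76 ± 0.45) without overlap. The longest annotated transcript of Il1rn has 1 exon (2554 bp), against 11 exons for Il18r1, so its length may not be that of the spliced RNA.

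**Figure D1:**
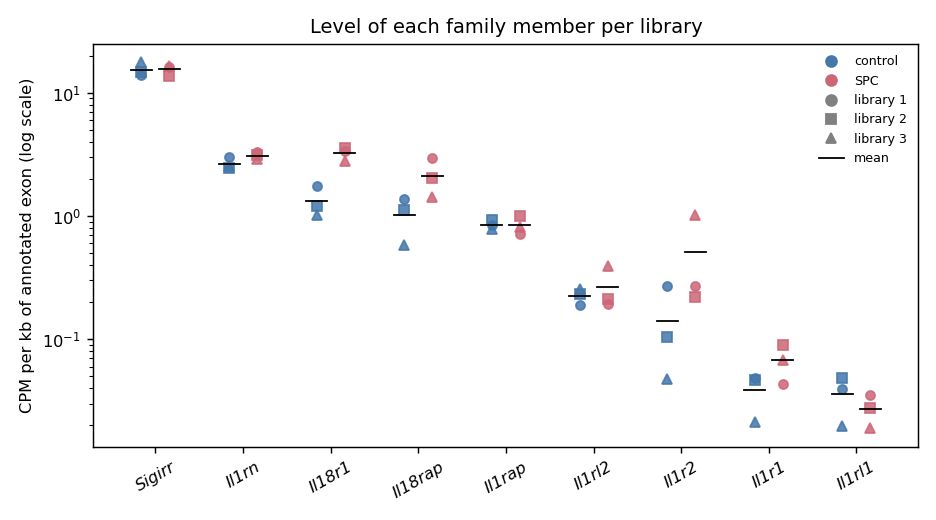
Level of the 9 genes in CPM per kb of annotated exon (vertical log axis), with 1 point per library, control in blue and SPC in red, and the mean of 3 libraries as a line. Sigirr lies highest, and Il1r1 and Il1rl1 lowest, in both groups.

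Both chains of the IL-18 receptor were at higher levels in the SPC libraries. Il18r1, the IL-18-binding chain, had 8.35, 5.84 and 4.91 CPM in control libraries 1, 2 and 3 and 16.3, 17.1 and 13.5 CPM in SPC libraries 1, 2 and 3. Every SPC library lay above every control library. The means were 6.36 ± 1.78 and 15.6 ± 1.88 CPM (SD, n = 3 each), and the ratio within same-numbered libraries was 1.95, 2.93 and 2.75. The log2 fold change of Il18r1 was 1.29 ± 0.19 (SE, edgeR).

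Il18rap, the accessory chain that IL-18 signalling requires, had 9.30, 7.53 and 3.95 CPM in the control libraries and 19.8, 13.7 and 9.56 CPM in the SPC libraries. The lowest SPC library lay just above the highest control library. The library numbered 1 was the highest and that numbered 3 the lowest in both groups, and the ratio within same-numbered libraries was 2.13, 1.82 and 2.42. The means were 6.93 ± 2.72 and 14.3 ± 5.14 CPM (SD, n = 3 each). The log2 fold change was 1.04 ± 0.32 without and 1.05 ± 0.11 with the replicate number as a block (SE).

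Among all 12226 tested genes, 59 (0.483%) had a Benjamini-Hochberg adjusted p under 0.05 in edgeR's quasi-likelihood test, and of the 7 family members that could be tested 1 did, Il18r1 (adjusted p = 0.0367). Blocking on the replicate number let 866 genes (7.08%) pass, and among them 2 members, Il18r1 (adjusted p = 0.000189) and Il18rap (0.000275, against 0.261 without the block). DESeq2 called 282 of all tested genes (2.31%), among them the same 2 members. Groups did not overlap for Il18r1 and Il18rap, 2 of the 7 tested members, and for 2014 of all tested genes (16.5%). Without the block, the call of Il18r1 ended when control library 2 was left out (adjusted p = 0.199), and likewise for control library 3 (0.0642), SPC library 1 (0.0693) or SPC library 2 (0.175). It was also lost without both libraries numbered 1 (0.0637) or numbered 2 (0.700), and its log2 fold change lay between 1.15 and 1.51 in these 6 fits. The log2 fold change of Il18rap lay between 0.73 and 1.32 when libraries were left out.

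**Figure D2:**
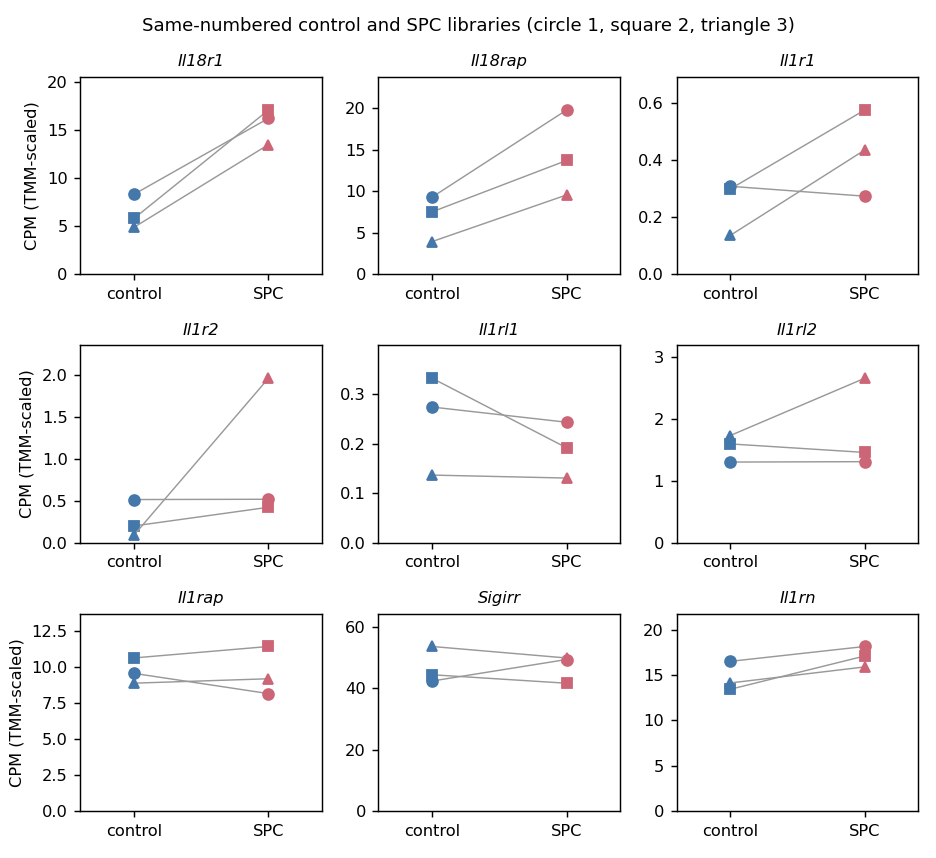
TMM-scaled CPM of each family member in same-numbered control and SPC libraries, joined by lines, with a separate vertical axis from 0 for each gene. All 3 lines go up for Il18r1 and Il18rap, where no SPC library overlaps the control libraries, and also for Il1r2 and Il1rn, where the groups overlap. The line of Il1r2 for number 1 is nearly level (0.513 and 0.516 CPM). All 3 go down for Il1rl1, and those of Sigirr, Il1rap, Il1rl2 and Il1r1 go in both directions. For Il1rl1 the libraries numbered 1 had 8 counts each and those numbered 3 had 3 each, so these lines differ through scaling alone.

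Il18rap stood at 0.795, 0.920 and 0.575 times the level of Il18r1 per kb of exon in the control libraries and at 0.868, 0.571 and 0.505 times that level in the SPC libraries. The mean ratio was 0.763 ± 0.175 in control and 0.648 ± 0.193 with SPC (SD, n = 3 each), a difference smaller than the spread within either group. The ratio was lowest in the library numbered 3 in both groups. Per length of the longest transcript the mean ratio was 0.910 ± 0.209 and 0.773 ± 0.231, and it exceeded 1 in control library 2 (1.10) and SPC library 1 (1.03).

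**Figure D3:**
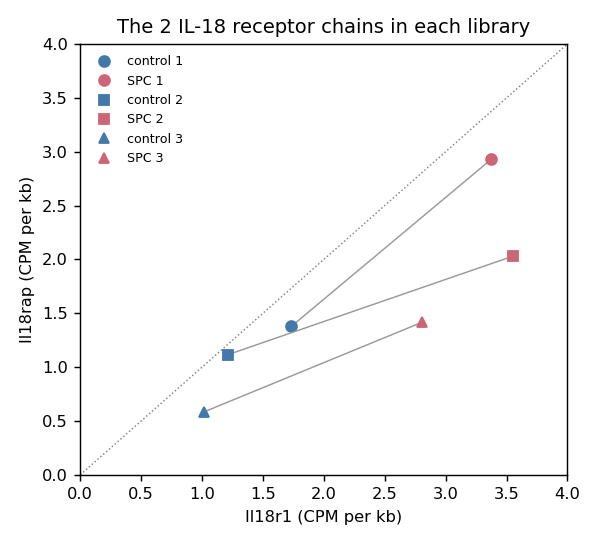
Il18rap against Il18r1, both in CPM per kb of annotated exon, with 1 point per library and a line joining same-numbered control (blue) and SPC (red) libraries; the dotted line marks equal levels. With this length all 6 points lie below equality (4 of 6 per longest transcript), and the 3 SPC points lie farther along both axes than the control point of the same number.

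Il18r1 and its upstream neighbour Il1rl1 were at very different levels although 136 bp separate them. Il1rl1, the IL-33-binding chain, had 8, 10 and 3 counts in the control libraries and 8, 5 and 3 in the SPC libraries, or at most 0.332 CPM. It was too low to be tested. Over each group the 21 control and 16 SPC counts gave a ratio of 0.756 (95% exact interval 0.369 to 1.52, counting error only). The counts of Il1rl1 do not separate the membrane receptor from its soluble isoform. Of the windows of 50 bases in the longest transcripts, 0.06% of those of Il1rl1 and 0.39% of those of Il18r1 are shared with other genes, against none in the other 7 members.

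The receptors for IL-1 and IL-36 were low in both groups. Il1r1, the signalling IL-1 receptor, had 9, 9 and 3 counts in control libraries and 9, 15 and 10 with SPC, at most 0.574 CPM, and was also too low to be tested. The ratio of its summed counts, 34 with SPC against 21 in control, was 1.61 (95% exact interval 0.906 to 2.91, counting error only). Il1r2, the decoy, had 15, 6 and 2 counts in the control libraries and 17, 11 and 45 in the SPC libraries. Most of its difference lay in SPC library 3, at 1.96 CPM, while SPC libraries 1 and 2, at 0.516 and 0.421 CPM, lay close to control library 1 at 0.513 CPM. Its log2 fold change was 1.72 ± 0.73 (SE) and was 0.75 ± 0.60 without SPC library 3. It reached the low-count limit of 0.36 CPM in 1 control and 3 SPC libraries, so that it entered the test mainly through the SPC group. Il1rl2, the IL-36-binding chain, had 1.30, 1.59 and 1.73 CPM in control and 1.31, 1.45 and 2.65 CPM in SPC libraries. The groups overlapped, and its log2 fold change of 0.21 (95% interval -0.49 to 0.92) turned to -0.15 without SPC library 3.

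Il1rap and Sigirr, the shared accessory chain and the inhibitory receptor, had overlapping ranges in both groups. Il1rap had 9.54, 10.6 and 8.86 CPM in control libraries and 8.14, 11.4 and 9.17 CPM in those with SPC. Its log2 fold change was -0.02 (95% interval -0.36 to 0.32). In the annotation 552 bp of its exons overlap exons of an antisense gene, Gm20319, and whether counting used strand is not given in the sources used here. Sigirr had 42.4, 44.4 and 53.6 CPM in control libraries and 49.4, 41.7 and 49.9 CPM in those with SPC, with a log2 fold change of 0.01 (95% interval -0.25 to 0.26). Per kb of exon Sigirr stood at 18.3 ± 3.78 times the level of Il1rap in control and at 18.9 ± 4.68 times with SPC (SD, n = 3 each).

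Il1rap exceeded the ligand-binding chains that use it. In control cells it stood at 0.852 ± 0.078 CPM per kb against 0.226 ± 0.032 for Il1rl2. With SPC it stood at 0.843 ± 0.147 against 0.265 ± 0.108 for Il1rl2. Its level per kb was 26.7 ± 11.1 times that of Il1rl1 and 24.6 ± 10.3 times that of Il1r1 in control cells, and 33.1 ± 11.5 and 13.2 ± 3.03 times with SPC (SD, n = 3 each). Per length of the longest transcript they were 51.6 ± 21.4 and 56.5 ± 23.8 in control and 63.9 ± 22.2 and 30.4 ± 6.95 with SPC. These ratios rest on as few as 3 counts of Il1rl1 or Il1r1 in a library.

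Il1rn, the receptor antagonist, had 16.5, 13.4 and 14.1 CPM in the control libraries and 18.2, 17.1 and 15.9 CPM in the SPC libraries. Each SPC library lay above the control library of its number, by 1.10, 1.27 and 1.13 times, but the groups overlapped. Its log2 fold change was 0.22 (95% interval -0.04 to 0.47), and it passed neither the test without nor that with the block (adjusted p = 0.577 and 0.173, edgeR).

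**Figure D4:**
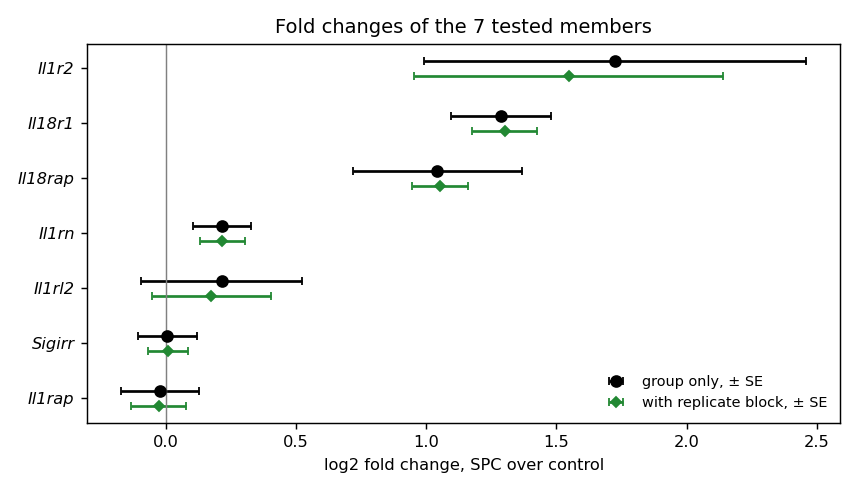
Log2 fold change (SPC over control) ± SE of the 7 tested members, fitted with group as the single term (black circles) and with the replicate number as a block (green diamonds). Il1r2, at 1.72, Il18r1, at 1.29, and Il18rap, at 1.04, lie above 1, with the widest interval at Il1r2, and Sigirr (0.01) and Il1rap (-0.02) lie close to 0.

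The genes around the receptor cluster were examined in the same fit. Of 13 protein-coding genes within 1 Mb, 8 were tested and none was called by edgeR or DESeq2, with 3 at an unadjusted p under 0.05 (10.2% of all tested genes, 1250, were) and 1, Npas2, called with the block (7.08% of all tested genes). Map4k4, a kinase gene 47769 bp before Il1r2, stood at 255 ± 18.6 CPM (control) and 249 ± 1.67 CPM (SPC) (SD, n = 3 each; log2 fold change -0.04 ± 0.07). On the other side, the sodium-proton exchanger gene Slc9a4, 28376 bp after Il18rap, had 0 counts in all 6 libraries. The related Slc9a2, at 0.313 ± 0.099 and 0.858 ± 0.376 CPM, had the largest log2 fold change of these neighbours (1.47 ± 0.43, SE, adjusted p = 0.239). Its value rests on low counts, 11, 6 and 8 in control and 26, 33 and 12 in SPC libraries. Npas2, which encodes a transcription factor of the circadian clock and lies 710843 bp before Il1r2, stood at 16.3 ± 2.33 and 22.1 ± 1.27 CPM (0.43 ± 0.12, adjusted p = 0.191; block, 0.00981). The other 5, Rnf149, Tbc1d8, Cnot11, Rpl31 and Mfsd9, differed by 0.20, 0.16, 0.07, -0.12 and -0.37 on the log2 scale, with adjusted p-values of 0.358, 0.856, 0.882, 0.629 and 0.860 in edgeR.

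**Figure D5:**
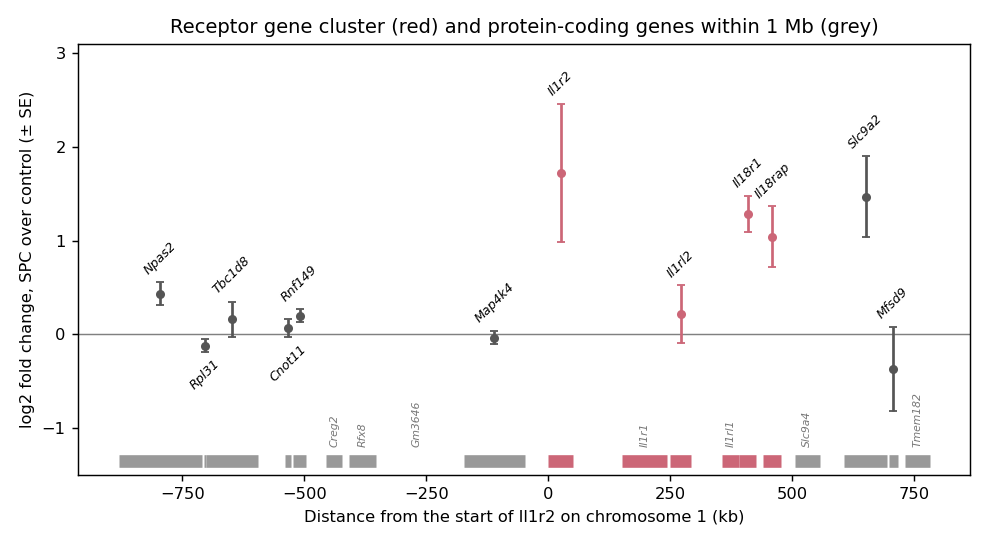
Log2 fold change (SPC over control, ± SE) along chromosome 1, by distance in kb from the start of Il1r2, for the receptor genes (red) and other protein-coding genes within 1 Mb (grey). Bars at the bottom show the extent of each gene, and genes named above the bars were too low to be tested. Il18r1 and Il18rap lie side by side above 1, as do Il1r2 and Slc9a2 with wider intervals, while Map4k4 before the cluster lies at -0.04.

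Of the ligands of these receptors, Il18 and Il33 had 0 counts in all 6 libraries, and Il1b had at most 4. Il1a, which encodes IL-1α, was present at 31.7, 18.3 and 13.05 CPM in the control libraries and at 35.6, 29.6 and 22.6 CPM in the SPC libraries. It was higher in each SPC library than in the control library of its number, with overlapping groups (log2 difference 0.47 ± 0.29, adjusted p = 0.669; block, 0.0174). Il18bp, the secreted IL-18 binding protein, had 1.87 ± 0.35 and 1.64 ± 0.28 CPM (-0.19 ± 0.24, adjusted p = 0.863). These were the 2 tested genes of 10 ligand and soluble regulator genes measured, and neither was called, by DESeq2 either, nor had an unadjusted p under 0.05. The other 8 reached at most 0.213 CPM.

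Of 8 genes of ligand processing, 6 were tested and none was called by edgeR with or without the block or by DESeq2, nor had any an unadjusted p under 0.05. Aim2, a cytosolic DNA sensor, had 43.8 ± 3.83 and 49.4 ± 2.40 CPM (SD, n = 3 each; log2 fold change 0.17 ± 0.09, adjusted p = 0.572). Casp1, the protease that matures IL-1β and IL-18, had 2.52 ± 0.37 and 3.17 ± 0.56 CPM (0.33 ± 0.21, adjusted p = 0.674), and Gsdmd, the pore-forming gasdermin D, 2.74 ± 0.16 and 2.39 ± 0.38 CPM (-0.20 ± 0.19, adjusted p = 0.819).

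Of 24 genes of the signalling chain below the receptors, 21 were tested, with a median log2 fold change of -0.01 against 0.00 over all tested genes. None was called by edgeR or DESeq2, and 1 had an unadjusted p under 0.05 (10.2% of all tested genes). With the block 1, Irak4, was lower (3.07% of all tested genes). Irak4, the kinase that MyD88 recruits first, had 14.98, 15.7 and 16.1 CPM in control libraries and 13.3, 10.99 and 11.2 CPM in those with SPC (log2 difference -0.40 ± 0.11, adjusted p = 0.198; block, 0.0370). Myd88 stood at 45.9 ± 6.23 and 45.2 ± 3.74 CPM and Traf6 at 260 ± 9.94 and 270 ± 37.8 CPM (SD, n = 3 each), with log2 fold changes of -0.02 ± 0.11 and 0.05 ± 0.10; these 2 genes were chosen after their values were seen. Tab3, an adaptor of the kinase TAK1, had -0.22 ± 0.11 (adjusted p = 0.550), and Tirap, a bridging adaptor of Toll-like receptors, -0.51 ± 0.25 (adjusted p = 0.552).

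Among 14 other receptors with a TIR domain, 5 were tested (median log2 fold change 0.52), none was called by edgeR or DESeq2, 2 had an unadjusted p under 0.05 (10.2% of all tested genes), and 1 was higher with the block (4.02% of all tested genes). This was Tlr7, a receptor of single-stranded RNA, with 8.17, 6.54 and 5.05 CPM in control libraries and 9.63, 10.0 and 8.82 CPM in those with SPC (0.52 ± 0.17, adjusted p = 0.315; block, 0.0306). Every SPC library lay above every control library. Tlr2, a receptor of bacterial lipoproteins, had 2.20 ± 0.53 and 3.20 ± 0.43 CPM (0.53 ± 0.23, adjusted p = 0.472), and Tlr9, a receptor of CpG DNA, 0.923 ± 0.200 and 0.656 ± 0.168 CPM (-0.50 ± 0.32, adjusted p = 0.680).

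Of 18 tested feedback and response genes, 1 was called higher, Il9 (log2 fold change 1.08 ± 0.13, adjusted p = 0.0189). Leaving out control library 2 (adjusted p = 0.112), SPC library 2 (0.0757) or the pair numbered 1 (0.0637) or 2 (0.328) ended the call of Il9. DESeq2 called 4 of this list, against 2.31% of all tested genes. With the block 4 were higher and 2 lower, against 4.02% and 3.07% of all tested genes, and the median of the list was 0.15. Socs1, an inhibitor of cytokine signalling, had 119, 124 and 125 CPM in control libraries and 97.6, 93.0 and 91.8 CPM in those with SPC (-0.38 ± 0.07, adjusted p = 0.0514; block, 0.00226). Il13, a type 2 cytokine gene, stood at 102 ± 15.5 and 161 ± 12.4 CPM (0.66 ± 0.12, adjusted p = 0.0530; block, 0.000555).

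A list of 18 transcription factors of T cells was chosen as possible regulators of receptor genes of the cluster. All 18 entered the fit, with a median log2 fold change of 0.07. Whether any of them acts on these genes in Th9 cells was not tested. Rora, a nuclear receptor, was called higher, with 30.9, 33.2 and 33.4 CPM in control libraries and 51.1, 58.6 and 68.2 CPM in those with SPC (0.87 ± 0.11, adjusted p = 0.0200). Leaving out control library 2 (adjusted p = 0.116), SPC library 2 (0.126) or both (0.492) ended that call. DESeq2 called 4 factors (2.31% of all tested genes), and with the block 6 were higher and 3 lower (4.02% and 3.07% of all tested genes). Stat4, which carries IL-12 signals and is known to act on Il18r1 in Th1 cells, was among the lower ones, with 26.2, 30.0 and 27.5 CPM in control libraries and 14.5, 19.2 and 20.3 CPM in those with SPC (-0.64 ± 0.13, adjusted p = 0.0821; block, 0.00155). The groups did not overlap. Maf, a transcription factor of several effector T cell types, was among the higher ones at 5.50 ± 0.45 and 10.3 ± 1.92 CPM (0.90 ± 0.16, adjusted p = 0.0538; block, 0.00094).

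Over the 6 libraries, the log2 CPM of Il18r1 had a Pearson correlation of 0.89 with Il18rap, 0.87 with Il1rn, 0.69 with Il1r2, -0.01 with Il1rl2, 0.01 with Il1rap and -0.25 with Sigirr. The points share the difference between the groups and are given as a description. Among 9121 genes, predicted genes left out, with a mean of at least 5 CPM, N4bp1 (0.99), Tmx2 (0.99), Aasdhppt (0.99), Zfp296 (0.99) and Zhx2 (0.99) had the patterns most like that of Il18r1, and Il18rap came at place 245. Their log2 fold changes, 0.25, 0.17, 0.13, 0.52 and 0.43, were smaller than that of Il18r1.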

How the data were processed

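The deposited values are unnormalised read counts, listed by gene symbol, for 6 RNA libraries made with a kit that marks strand, per the labels' protocols. TopHat and the mm10 build are named in the submitters' processing notes. For the TopHat version, counting program, annotation and strand setting: not given in the sources used here.

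The counts went into edgeR 4.0.16 under R 4.3.3 (quasi-likelihood F test, robust, TMM scaling, group as the single term). filterByExpr (minimum count 10, minimum total 15) kept 12226 genes, and a gene was called at a Benjamini-Hochberg adjusted p under 0.05. The SE of a log2 fold change is its size over the square root of F, and 95% intervals use the fit's degrees of freedom. The script was tested on simulated data. DESeq2 1.42.0, other scalings, no filter, the replicate block and left-out libraries were the alternatives. All fits with libraries left out were made without the block. Groups of 3 against 3 allow no exact permutation p below 0.1.

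Replicate numbers come from the titles. Deviations of same-numbered libraries from their group means correlated at 0.413, 0.208 and 0.508 across genes, each more than the 0.1 required to treat numbers as pairs, and the highest correlation between other numbers was 0.0742. Within groups, chi-square per degree of freedom was 4.99 to 36.7, so no libraries agreed within counting noise.

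Exon lengths and positions are from GENCODE M21 (GRCm38), with the union of exons as the main length; 95.57% of the symbols matched directly. The text names all members, called genes and up to 3 genes of smallest p per pathway list, tested neighbours, and the 5 genes most correlated with Il18r1. Members, lists and tests were chosen with earlier results of these data known.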

Additional observations from a re-analysis of the deposited data

How the results depend on the processing

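Scaling by DESeq2's size factors or by library totals kept the number of called genes within 1.5 times of 59. The DESeq2 test called 282 genes, the edgeR test without a filter 147 and that with the replicate block 866. Among the 9 members the DESeq2 test and the replicate block each called 2 instead of 1, and among the pathway genes 8 (DESeq2), 7 (no filter) and 18 (replicate block) were called instead of 2. With the replicate block 1 instead of 0 neighbouring genes was called. When libraries were left out, singly or both of a number, the count of called genes lay between 0 and 66, that of members between 0 and 1 and that of pathway genes between 0 and 3. The count of 0 came when the pair numbered 2 was left out; the unadjusted p was then under 0.05 for 502 genes. Of 518 gene values under 14 alternatives, 463 kept their direction and side of the threshold, 26 passed it newly, 13 lost it and 16 changed sign. The sign changes were all in fits with libraries left out, where Il1rap ranged from -0.17 to 0.087, Sigirr from -0.10 to 0.12, Il1rl2 from -0.15 to 0.41, Map4k4 from -0.068 to 0.031, Tbc1d8 from -0.015 to 0.34, Cnot11 from -0.014 to 0.14 and Mfsd9 from -0.85 to 0.024 on the log2 scale; none of these was called. The cause was not tested. Per length of the longest transcript, the ratio of Il1rap to Il1rl1 in control cells was 51.6, of Il1rap to Il1r1 56.5 and of Sigirr to Il1rap 11.1. Depth limits Il1r1, Il1rl1, Il1r2 and the neighbour Slc9a2, with 2 to 45 counts per library.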
